A study of Mus musculus with 24 samples.

Results

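The genes described here are 10 genes that carry, move or store cholesterol and fatty acids: the apolipoprotein genes Apoe, Apoc1, Apoc2 and Apoc4, the efflux transporter genes Abca1 and Abcg1, the lipase gene Lpl, the sterol enzyme genes Ch25h and Soat1, and the lipid droplet gene Plin2. They were taken by symbol from a table of 36333 genes, where they have 11 rows. Plin2 is listed in 2 rows, and the row with a group mean of at most 0.126 TPM was below the limit for testing, so the other row is meant wherever Plin2 is named. The remaining 10 rows were all tested.

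RNA was sequenced from 24 male mice, with 1 library per mouse. The labels give the strain as C57BL6N and the age as 12 to 16 weeks, whereas the methods name C57BL/6JRj mice. A controlled cortical impact (CCI), a piston strike onto the exposed right parietal cortex, was the traumatic brain injury (TBI), and tissue was taken at 5 days post injury (dpi). After TBI, 5 mice each received vehicle, PLX3397, Anakinra or PLX3397+Anakinra, and 4 mice had sham surgery with a skin incision but, according to the methods, no craniotomy. PLX3397 inhibits CSF1R, the growth factor receptor that microglia need to survive, and was mixed into chow at 290 mg per kg of food from 90 min after CCI onward. Anakinra blocks the interleukin-1 receptor IL1R1 and was injected subcutaneously at 100 mg/kg at 5 min, 24 h, 48 h and 72 h. The labels call the tissue cortex, while the methods describe the lesion and its surroundings including striatum, hippocampus and thalamus. All 5 vehicle mice, and no others, have animal numbers ending in B, and a batch behind this letter cannot be told apart from vehicle treatment.

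Apolipoproteins are the protein part of lipoprotein particles, and ApoE is the main one made in brain, where astrocytes secrete it and activated microglia add to it. ABCA1 and ABCG1 load cholesterol and phospholipid onto such particles, and oxysterols switch on both genes through the liver X receptors (LXR). Phagocytes that clear myelin after an injury take up large amounts of cholesterol, which they export, esterify or keep in lipid droplets.

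All 10 genes were higher in vehicle mice than in sham mice, and all 10 were lower with PLX3397 and with PLX3397+Anakinra than with vehicle. With Anakinra alone Apoc2 was called lower, a call that was lost without any one of 6 mice, and the other 9 genes had lower means that did not pass the test. Apoc2 was also the one gene of the set that was called between the combination and PLX3397.

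Apoe, Apoc1, Apoc4 and Apoc2 lie side by side on the minus strand of chromosome 7, within 29.7 kb. In RefSeq coordinates of GRCm38.p6, Apoc2 spans 19671579 to 19677941, Apoc4 19678084 to 19681460, Apoc1 19689480 to 19692659 and Apoe 19696244 to 19701310. Abca1 (53030789 to 53159988) and Plin2 (86626910 to 86670217) are on chromosome 4. Soat1 (156428108 to 156474328) is on chromosome 1, Lpl (68880555 to 68906932) on chromosome 8, Abcg1 (31057694 to 31117984) on chromosome 17 and Ch25h (34473783 to 34475148) on chromosome 19. A readthrough gene, Gm44805, joins Apoc4 to Apoc2 and shares 79.5% of the exonic bases of Apoc2 and 4.69% of those of Apoc4 (GENCODE vM21). It has no row in the table, so reads of such transcripts cannot be told apart from those of Apoc2, and the levels of both genes carry this uncertainty.

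Sequence before the transcription start is given in RefSeq for 7 of the 10 genes. Shown here are 141 of the 142 bases that separate Apoc2 from Apoc4, because these neighbours both appeared after TBI, a stretch before the listed start of each of Apoc4 and Abca1 that holds nuclear receptor motifs, and the sequence before Ch25h, whose response differed most between the drugs. The start that RefSeq's promoter window uses for Abca1 lies inside the gene span given above, so the stretch shown is within that span. All are GRCm38.p6, minus strand, read 5′ to 3′, and capitals mark the motif named for each.
Apoc2, chr7:19677942-19678082, AGGTCA in capitals: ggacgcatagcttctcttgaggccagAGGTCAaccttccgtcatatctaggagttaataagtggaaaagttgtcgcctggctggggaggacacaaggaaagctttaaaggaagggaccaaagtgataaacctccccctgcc
Apoc4, chr7:19681468-19681497, AGGTCA in capitals: aggagtgtggggAGGTCAcaaggggagggc
Abca1, chr4:53159940-53159969, the fixed letters of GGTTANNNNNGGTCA on the opposite strand in capitals: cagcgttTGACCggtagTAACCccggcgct
Ch25h, chr19:34475149-34475398, TATAAA and TGACGTCA in capitals: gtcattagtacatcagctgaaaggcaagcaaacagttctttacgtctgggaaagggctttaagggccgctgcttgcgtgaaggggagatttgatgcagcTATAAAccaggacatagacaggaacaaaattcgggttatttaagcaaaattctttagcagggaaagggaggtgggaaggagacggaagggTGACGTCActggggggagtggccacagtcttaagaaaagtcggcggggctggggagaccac

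The motifs were searched on both strands in the 250 bases before each start. AGGTCA, a core motif bound by many nuclear receptors, is in 14% of all 32851 such windows and in those of Apoc2, Apoc4 and Plin2. A pair of core motifs at the spacing that LXR binds, written as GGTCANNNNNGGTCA or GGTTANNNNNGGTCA, are in 0.11% of windows and, among the 10 genes, in that of Abca1. The cAMP response element TGACGTCA is in 1.55% of windows and in that of Ch25h, and the TATA box letters TATAAA in 12.4%, among them Abca1, Apoe and Ch25h. The TATAAA matches begin 29 bases before the listed start in Abca1, 100 (opposite strand) and 96 in Apoe, and 151 in Ch25h. These matches describe the letters of the windows and were not tested as binding sites.

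Expression is given as TPM, which according to the methods is called CPM in CLC. The values sum to 1000000 per library and were treated as scaled for gene length, on which comparisons between genes rest. Between 22160 and 23249 genes per library were above 0. The depth is unknown because the table holds no counts. Fold changes are limma estimates on log2(TPM + 1), which understate the change of genes near 0, and a gene is called at a Benjamini-Hochberg adjusted p below 0.05 over the 17267 genes tested. Among vehicle mice, J17B had the lowest value in 9 of the 10 genes, and results that rest on this mouse are given with and without it.

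**Figure D1:**
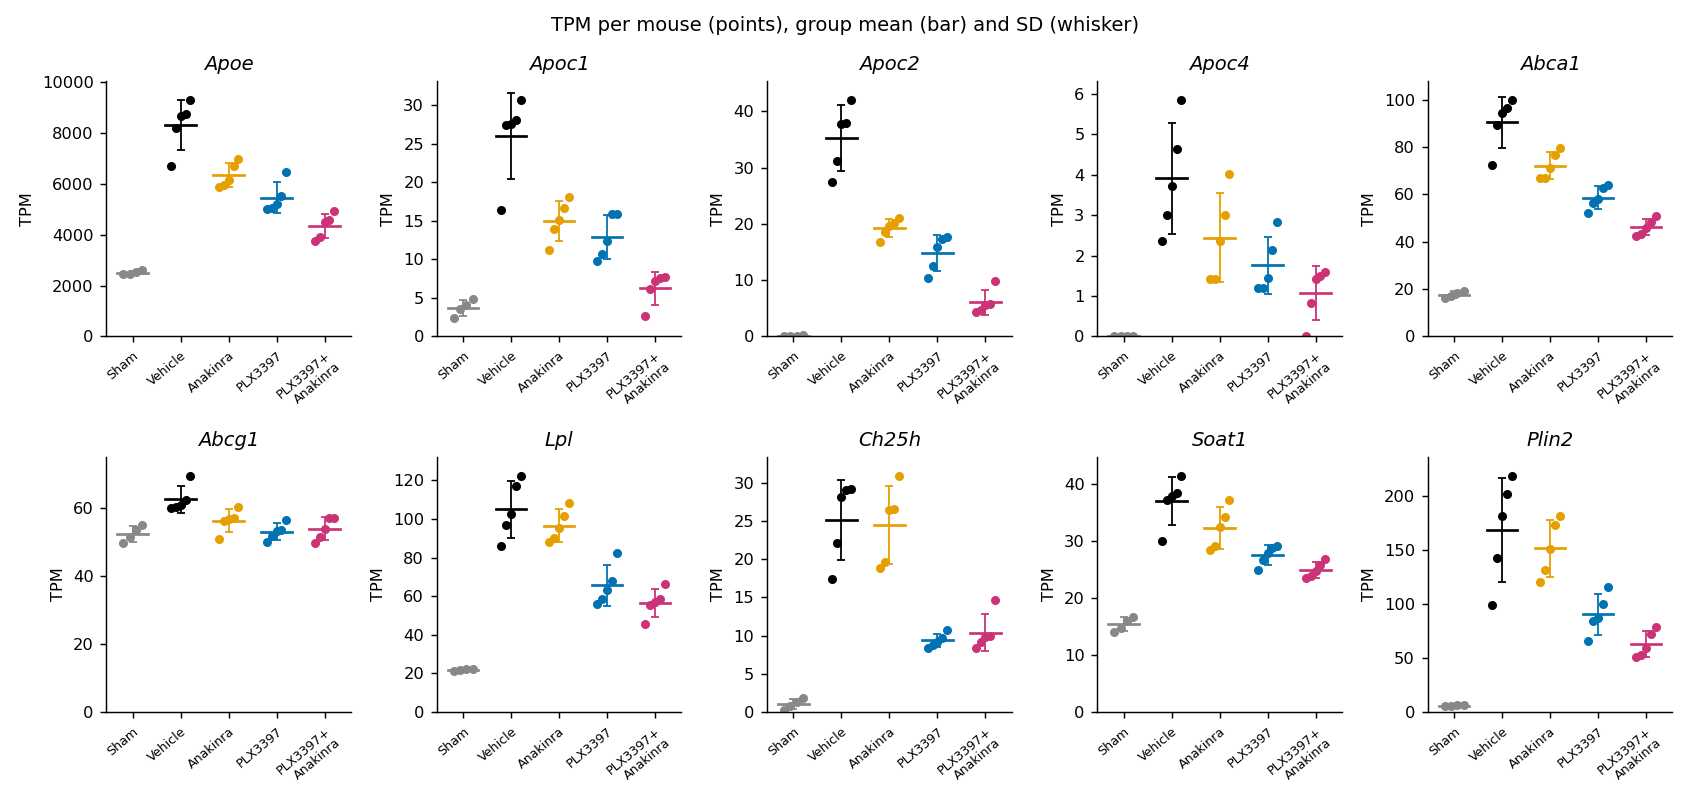
TPM of the 10 genes in each mouse (points), with the group mean (bar) and SD (whisker), for sham (n = 4) and the 4 TBI groups (n = 5 each), on axes that start at 0. Vehicle means are the highest of the 5 groups in all 10 genes, and the PLX3397+Anakinra means are the lowest of the TBI groups except for Abcg1 and Ch25h.

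Apoe encodes the lipid carrier ApoE, and it was among the most abundant transcripts of every group. Sham mice had 2445, 2447, 2526 and 2609 TPM, and vehicle mice 6710, 8212, 8688, 8754 and 9312 TPM. No sham mouse came near a vehicle mouse, and the mean in vehicle mice was the highest of all genes in the table, after rank 15 in sham mice. The difference was 1.73 on the log2 scale (SE 0.09, limma adjusted p = 6.19e-14), from 2507 ± 78.0 TPM (SD, n = 4) to 8335 ± 989 TPM (SD, n = 5).

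Apoe was 5027, 5073, 5197, 5541 and 6490 TPM with PLX3397. With Anakinra it was 5901, 5958, 6171, 6715 and 6971 TPM, and with PLX3397+Anakinra 3759, 3924, 4517, 4590 and 4923 TPM. Every PLX3397 mouse and every mouse on the combination was below every vehicle mouse, whereas 2 Anakinra mice reached the range of the lowest vehicle mouse, J17B. Apoe fell by 0.61 (SE 0.09, adjusted p = 1.98e-05) with PLX3397 and by 0.94 (SE 0.09, adjusted p = 1.11e-08) with the combination. With Anakinra the log2 fold change was -0.39 (95% interval -0.57 to -0.21), which did not pass (adjusted p = 0.0627) but did without J17B (adjusted p = 0.016, limma). All mice on the combination were also below all mice on PLX3397 alone, with a log2 fold change of -0.33 that did not pass after adjustment (adjusted p = 0.141).

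Apoc2 encodes the cofactor that lipoprotein lipase needs to work. It was listed at 0 in 3 sham mice and at 0.175 TPM in the fourth, so no fold against sham is given. Vehicle mice had 27.5, 31.2, 37.8, 38.0 and 42.0 TPM (adjusted p against sham = 6.5e-18). By this p it was rank 12 of the 17267 genes tested, ahead of the other 9 genes.

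Anakinra mice had 16.8, 18.6, 19.7, 20.2 and 21 TPM of Apoc2. PLX3397 mice had 10.4, 12.5, 15.9, 17.3 and 17.8 TPM. With the combination the values were 4.33, 4.71, 5.64, 5.67 and 9.80 TPM. The vehicle mice were above all treated mice, and the mice on the combination were below all others with TBI, while the single drugs overlapped each other.

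Against vehicle, Apoc2 fell by 1.21 (SE 0.15, adjusted p = 3.99e-06) with PLX3397, by 0.83 (SE 0.15, adjusted p = 0.0351) with Anakinra and by 2.40 (SE 0.15, adjusted p = 1.02e-10) with the combination. Against PLX3397 alone the combination was lower by a log2 fold change of -1.19 (SE 0.15, adjusted p = 2e-04), and against Anakinra alone by -1.57 (SE 0.15, adjusted p = 5.05e-08). PLX3397 and Anakinra did not differ past the threshold (-0.38, 95% interval -0.70 to -0.06, adjusted p = 0.155). The call with Anakinra was lost without any one of vehicle mice J01B and J20B or Anakinra mice J05, J06, J14 and J21 (limma adjusted p between 0.0515 and 0.086).

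Apoc1 encodes a small apolipoprotein that slows lipid uptake and lipolysis. It was 3.74 ± 1.05 TPM in sham mice (SD, n = 4) and 26.0 ± 5.57 TPM in vehicle mice (SD, n = 5), a rise of 2.51 on the log2 scale (SE 0.22, adjusted p = 8.33e-10). Vehicle mouse J17B had 16.4 TPM, and the other vehicle mice 27.5 to 30.7 TPM. PLX3397 mice ranged from 9.81 to 16.0 TPM and Anakinra mice from 11.2 to 18.1 TPM, both near the middle between sham and vehicle.

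With the combination Apoc1 was 2.59, 6.12, 7.14, 7.63 and 7.69 TPM, and the lowest of these mice lay inside the sham range of 2.38 to 4.90 TPM. The fall against vehicle was 1.94 (SE 0.21, adjusted p = 1.58e-07), and with PLX3397 alone 0.95 (SE 0.21, adjusted p = 0.00369). Anakinra gave -0.74 (95% interval -1.18 to -0.31, adjusted p = 0.133). The combination was below PLX3397 in all mice, and the log2 fold change of -0.99 missed the threshold (adjusted p = 0.0515). It passed without PLX3397 mouse J01 or without combination mouse J03 or J04 (limma adjusted p between 0.0428 and 0.047). Among the 8 genes with values above 0 in all sham mice, Apoc1 was the nearest to sham on the combination after Abcg1, 0.57 above it (SE 0.22, adjusted p = 0.0451), a call that was lost in 7 of the 9 fits without one of these mice (highest limma adjusted p = 0.177).

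Apoc4, a little studied apolipoprotein made mainly in liver, was listed at 0 in all 4 sham mice. Vehicle mice had 2.35 to 5.85 TPM, Anakinra mice 1.41 to 4.02 TPM, PLX3397 mice 1.19 to 2.82 TPM, and mice on the combination 0 to 1.59 TPM. Among the TBI groups the values overlapped except for the combination against vehicle, where the log2 fold change was -1.28 (SE 0.24, adjusted p = 0.000426). The fall of 0.82 with PLX3397 (SE 0.24, adjusted p = 0.0296) was lost with a pseudocount of 0.1 (adjusted p = 0.204) and in 6 of the 10 fits that left out a mouse.

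Abca1 encodes the transporter that starts cholesterol efflux to lipid-poor ApoE. Sham mice had 16.3, 17.03, 18.3 and 19.2 TPM, and vehicle mice 72.5, 89.4, 94.2, 96.5 and 99.9 TPM, which did not overlap. The rise was 2.29 (SE 0.08, adjusted p = 3.79e-17), the most significant of the 10 genes after that of Apoc2.

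With PLX3397 Abca1 was 52.1, 56.4, 57.9, 62.6 and 63.8 TPM. With Anakinra it was 66.8, 66.8, 71.0, 76.5 and 79.5 TPM, and with the combination 42.3, 43.4, 45.9, 48.4 and 50.8 TPM. These 3 groups formed separate steps with no mouse in common, and only Anakinra overlapped vehicle, through J17B. Abca1 fell by 0.61 (SE 0.08, adjusted p = 2.61e-06) with PLX3397 and by 0.95 (SE 0.08, adjusted p = 1.29e-09) with the combination. The log2 fold change of -0.32 with Anakinra (95% interval -0.47 to -0.16) did not pass (adjusted p = 0.0858), but did without J17B (adjusted p = 0.016, limma). The step between the single drugs passed (-0.30, SE 0.08, adjusted p = 0.0147), though not without PLX3397 mouse J01 or Anakinra mouse J05 (adjusted p = 0.0614 and 0.0517, limma). The step from PLX3397 to the combination did not pass (-0.34, SE 0.08, adjusted p = 0.0853).

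Abcg1, which passes cholesterol on to particles that already hold lipid, had the smallest log2 fold changes of the 10 in vehicle against sham and, with PLX3397 and the combination, against vehicle. Its levels were 49.6 to 55.1 TPM in sham mice and 60.1 to 69.6 TPM in vehicle mice, a small rise of 0.25 (SE 0.05, adjusted p = 0.000354). The means of PLX3397 and the combination lay within the range of sham mice and that of Anakinra just above it, with 53.1 ± 2.44 TPM for PLX3397, 56.3 ± 3.41 TPM for Anakinra and 53.9 ± 3.37 TPM for the combination (SD, n = 5 each). It fell by 0.23 (SE 0.05, adjusted p = 0.0032) with PLX3397 and by 0.21 (SE 0.05, adjusted p = 0.00447) with the combination. Against sham, neither PLX3397 (0.02, 95% interval -0.10 to 0.13) nor the combination (0.04, 95% interval -0.07 to 0.15) differed past the threshold (adjusted p = 0.828 and 0.618, limma).

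Lpl encodes lipoprotein lipase, the enzyme that frees fatty acids from lipoprotein triglyceride. It was 21.4, 21.98, 22.3 and 22.3 TPM in sham mice and 86.0, 97.0, 103, 117 and 122 TPM in vehicle mice. Anakinra mice had 87.8, 89.9, 95.1, 102 and 108 TPM and lay wholly inside the vehicle range. PLX3397 mice had 55.8, 58.3, 63.1, 68.1 and 82.5 TPM, and mice on the combination 45.5, 55.6, 56.8, 58.5 and 66.2 TPM, all below both.

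The rise of Lpl after TBI was 2.19 (SE 0.11, adjusted p = 1.14e-14). It fell against vehicle by 0.67 (SE 0.10, adjusted p = 3.5e-05) with PLX3397 and by 0.88 (SE 0.10, adjusted p = 3.21e-07) with the combination. Anakinra gave -0.11 (95% interval -0.32 to 0.09, adjusted p = 0.671). PLX3397 was lower than Anakinra by a log2 fold change of -0.56 (SE 0.10, adjusted p = 0.000452).

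Ch25h encodes cholesterol 25-hydroxylase, which makes the oxysterol 25-hydroxycholesterol. Sham mice had 0.301, 0.735, 1.30 and 1.85 TPM, and vehicle mice 17.4, 22.1, 28.2, 29.0 and 29.1 TPM. With Anakinra the values were 18.8, 19.6, 26.4, 26.5 and 30.9 TPM, which covered nearly the same range as vehicle. With PLX3397 they were 8.43, 8.83, 9.20, 9.67 and 10.7 TPM and with the combination 8.39, 9.22, 9.76, 9.96 and 14.6 TPM, so these groups overlapped each other and neither reached vehicle.

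Ch25h thus fell by 1.31 (SE 0.18, adjusted p = 1.06e-05) with PLX3397 and by 1.20 (SE 0.18, adjusted p = 2.23e-05) with the combination. Anakinra gave -0.04 (95% interval -0.41 to 0.33, adjusted p = 0.957). The difference between the single drugs was the largest of the 10 genes (-1.28, SE 0.18, adjusted p = 2.01e-05). The combination and PLX3397 did not differ past the threshold (0.12, 95% interval -0.25 to 0.49, adjusted p = 0.953).

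Soat1 encodes the enzyme that esterifies cholesterol for storage. It rose from 15.4 ± 1.20 TPM in sham mice (SD, n = 4) to 37.0 ± 4.23 TPM in vehicle mice (SD, n = 5), by 1.21 (SE 0.08, adjusted p = 5.11e-12). PLX3397 mice had 24.9 to 29.2 TPM and mice on the combination 23.6 to 26.9 TPM, all below the lowest vehicle mouse at 30.1 TPM. The falls were 0.41 (SE 0.08, adjusted p = 0.000631) and 0.54 (SE 0.08, adjusted p = 9.67e-06), the smallest after those of Abcg1. Anakinra mice ranged from 28.4 to 37.3 TPM (-0.19, 95% interval -0.35 to -0.03, adjusted p = 0.298).

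Plin2 encodes perilipin 2, a coat protein of lipid droplets. Sham mice had 5.39, 5.40, 6.12 and 6.49 TPM, and vehicle mice 99.4, 142, 181, 202 and 219 TPM. The rise of 4.58 (SE 0.18, adjusted p = 3.94e-16) was the largest of the 8 genes with values above 0 in all sham mice. PLX3397 mice had 65.5, 84.7, 86.8, 100.0 and 116 TPM, and 2 of them reached above J17B, the lowest vehicle mouse.

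Anakinra mice had 121, 131, 151, 174 and 182 TPM of Plin2. Mice on the combination had 51.2, 53.4, 59.0, 72.0 and 79.0 TPM, below all vehicle and Anakinra mice. Plin2 fell by 0.86 (SE 0.17, adjusted p = 0.00139) with PLX3397 and by 1.38 (SE 0.17, adjusted p = 1.81e-06) with the combination. Anakinra gave -0.12 (95% interval -0.48 to 0.24, adjusted p = 0.825), and PLX3397 was lower than Anakinra (-0.75, SE 0.17, adjusted p = 0.00682).

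The counts over the 10 genes read as follows beside all 17267 genes tested. In vehicle against sham 10 of 10 were called higher (26.6% of all genes), and in 10 the groups did not overlap (21.7%). Against sham, 9 were still higher with PLX3397 (22.7% of all genes), 9 with Anakinra (25.1%) and 9 with the combination (20.7%), in each case all but Abcg1. On the combination 7 of the 10 were without overlap with sham (16.9%), and Apoc1, Apoc4 and Abcg1 overlapped it. The median log2 fold change of the 10 was 2.27 in vehicle against sham, and that of all genes -0.01.

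Against vehicle, 10 of 10 were called lower with PLX3397 (6.66% of all genes) and 10 of 10 with the combination (9.6%). Values did not overlap in 8 with PLX3397 (4.91%) and in 10 with the combination (6.62%). With Anakinra 1 of the 10, Apoc2, was called lower (0.0463%), and this was also the 1 gene without overlap (1.42%). At an unadjusted p below 0.05, 7 of the 10 were lower with Anakinra, as were 6.94% of all genes. The median of the 10 was -0.75 with PLX3397, -0.25 with Anakinra and -1.07 with the combination, and the medians of all genes were 0.006, -0.015 and 0.014. These 3 comparisons share the same 5 vehicle mice. Without J17B the calls were 10, 3 and 10. The shares of all genes called without J17B are not given, so the 3 calls with Anakinra are not read as a result about these genes.

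**Figure D2:**
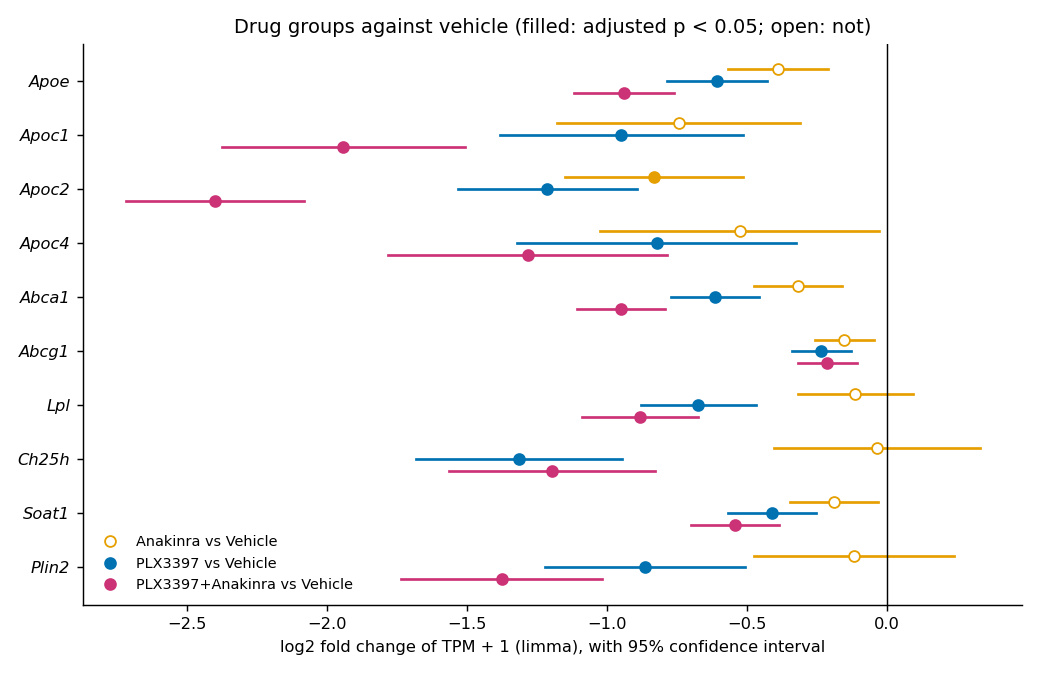
Log2 fold change of TPM + 1 against vehicle (limma, lines are 95% confidence intervals, n = 5 per group) for Anakinra, PLX3397 and PLX3397+Anakinra, with called genes filled. All 10 genes are filled with PLX3397 and the combination, and with Anakinra Apoc2 alone is filled, while the Anakinra intervals of Lpl, Ch25h and Plin2 include 0.

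Between the treated groups, 1 of the 10 (Apoc2) was lower with the combination than with PLX3397 (0.145% of all genes), and Apoe, Apoc1, Apoc2 and Abca1 did not overlap (4 of 10, 0.764% of all genes). Against Anakinra the combination was lower in 9 of 10 (8.1%), all but Abcg1, and 8 did not overlap (7.26%). The Apoc4 call among these (-0.76, limma adjusted p = 0.0393) was lost in 5 of the 10 fits without a mouse (highest adjusted p = 0.133), with a pseudocount of 0.1 (0.059), with no filter (0.0754) and in a fit of only these groups (0.075). PLX3397 was lower than Anakinra in Abca1, Lpl, Ch25h and Plin2 (4 of 10, 5.41% of all genes), and these were the 4 without overlap (5.38%). None of the apolipoprotein genes differed between the single drugs past the threshold. The interaction compares the combination with the sum of the changes under PLX3397 alone and Anakinra alone on the log2 scale. By limma it was called in 0 of 10 genes and in 0% of all genes. Its unadjusted p was below 0.05 in 1 of the 10, Abcg1 (0.17, SE 0.07, adjusted p = 0.558), and in 1395 of the 17267 genes tested. The estimates with the lowest values were those of Plin2 (-0.40, 95% interval -0.90 to 0.11) and Apoc2 (-0.36, 95% interval -0.81 to 0.09).

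How much of the level above sham was left is shown by expressing each mouse as a percentage of the mean difference between vehicle and sham. On the combination 11.2% ± 9.57 (SD, n = 5) was left for Apoc1 and 17% ± 6.2 for Apoc2, against 31.5% ± 8.34 for Apoe. Apoc4 kept 27.3% ± 17, and Plin2, Ch25h, Abca1, Lpl and Soat1 had means from 35.0% ± 7.41 for Plin2 to 44.3% ± 6.39 for Soat1. With Anakinra the order of the means was different, and this order was not tested. Ch25h kept 97.1% ± 21.3, Lpl 89.8% ± 10.1 and Plin2 89.5% ± 16.1, and Apoc1 and Apoc2 kept 50.5% ± 11.8 and 54.4% ± 4.64 (SD, n = 5 each). These SDs leave out the spread of vehicle mice. On this scale it was 21.7 percentage points for Ch25h, 17.8 for Lpl, 29.6 for Plin2, 25.0 for Apoc1 and 16.6 for Apoc2 (SD). With PLX3397 the values lay between 34.5% ± 3.58 for Ch25h and 56.1% ± 6.54 for Abca1, leaving out Abcg1, whose rise was too small for this measure (SD of 23.9 to 38.8 percentage points).

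**Figure D3:**
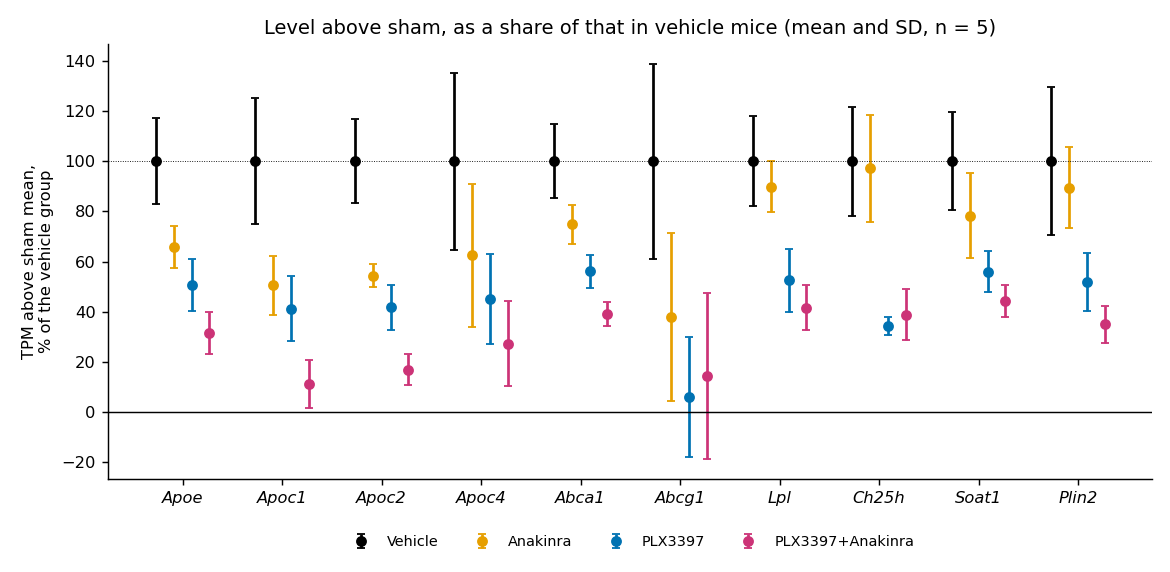
TPM above the sham mean as a percentage of that in the vehicle group, mean and SD of 5 mice per group. With Anakinra (orange) Ch25h, Lpl and Plin2 stay near 100%, and with PLX3397+Anakinra (pink) Apoc1 and Apoc2 are the lowest after TBI of the genes other than Abcg1.

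Whether the other genes moved in proportion to Apoe was tested on the log2 ratio to Apoe within each library, a comparison added after the values were seen, with exact two-sided permutation of the mice in 27 tests. On the combination the ratio of Apoc2 to Apoe fell by 1.46 (exact p = 0.00794, the smallest that 5 against 5 mice allow, adjusted p = 0.0306) and that of Apoc1 by 1.002 (adjusted exact p = 0.0306). The ratio of Abcg1 rose by 0.73 and that of Soat1 by 0.40, with the same p. The change for Abca1 was -0.01 (exact p = 0.889) and for Lpl 0.06 (exact p = 0.643), so a change of their ratio to Apoe was not detected. For Apoc2 the ratio also fell by 0.61 with PLX3397 and by 0.44 with Anakinra (adjusted exact p = 0.0306 and 0.0477). With PLX3397 the ratio of Ch25h fell by 0.71 (adjusted exact p = 0.0306), and with Anakinra those of Lpl and Soat1 rose by 0.28 and 0.20 (adjusted exact p = 0.0306 and 0.0477). The number of ratios that passed on the combination was 4, and 2 without vehicle mouse J19B.

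Among the neighbours of the apolipoprotein cluster no drug effect was called. Within 100 kb, 8 further genes were tested, and 0 were called by limma with PLX3397, Anakinra or the combination against vehicle, with log2 fold changes between -0.25 and 0.12. Of all genes, 3.23% were called higher and 6.66% lower with PLX3397. The shares were 0.0695% and 0.0463% with Anakinra and 7.88% and 9.6% with the combination. At these shares 8 genes are too few for 0 calls to set the neighbours apart. After TBI 4 of the 8 were called, in both directions, beside 26.6% of all genes higher and 27.7% lower. Nectin2, an adhesion protein gene, rose by 0.75 (adjusted p = 9.75e-06) and Relb, which encodes an NF-kappaB subunit, by 0.63 (adjusted p = 1.1e-05). Tomm40, which lies next to Apoe and encodes a pore of the mitochondrial import machinery, fell by 0.31 (adjusted p = 0.000102), and Clasrp fell by 0.24 (adjusted p = 0.00179).

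**Figure D4:**
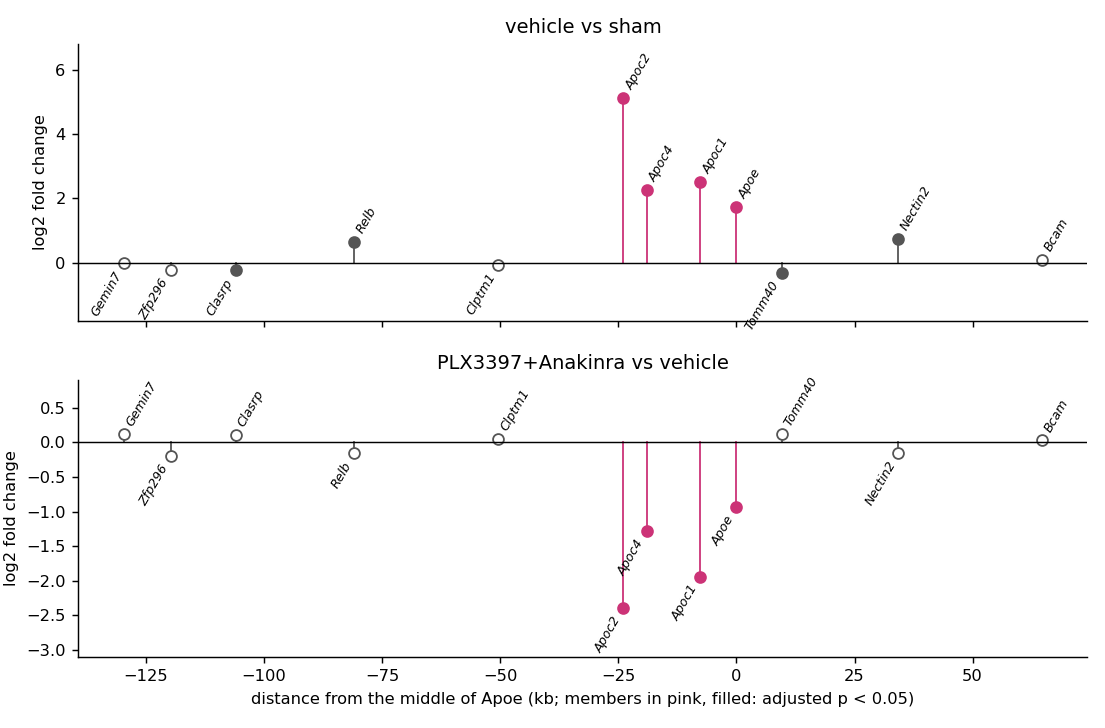
Log2 fold changes of the 12 tested genes in the Apoe region of chromosome 7 by their distance from the middle of Apoe in kb, for vehicle against sham (top) and PLX3397+Anakinra against vehicle (bottom), with called genes filled. The 4 apolipoprotein genes (pink) lie farther from 0 than their neighbours in both panels, and none of the neighbours is filled in the lower panel, while the upper values of Apoc2 and Apoc4 depend on the pseudocount because sham mice were at or near 0.

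Markers of phagocytes moved with these genes, and in bulk tissue fewer cells of a type and less RNA per cell cannot be told apart. Of 10 microglial markers, 10 were higher in vehicle than in sham mice, and 10 were lower with PLX3397 (median log2 fold change -1.33) and with the combination (-1.43), against 0 with Anakinra (-0.01). Their summed level was 366 to 392 TPM in sham, 1519 to 1958 TPM in vehicle, 1669 to 1881 TPM in Anakinra, 662 to 1015 TPM in PLX3397 and 597 to 801 TPM in combination mice. Of 10 markers of border and infiltrating macrophages, 9 were lower with PLX3397 (median -1.06) and 9 with the combination (median -1.83), and 0 with Anakinra (median -0.16). Their sum was 41.0 to 43.4 TPM in sham, 386 to 661 TPM in vehicle, 424 to 549 TPM in Anakinra, 207 to 347 TPM in PLX3397 and 154 to 209 TPM in combination mice. After TBI 8 of the 10 were higher and 1 lower. In both lists no marker was at 0 in a whole group.

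Other cell type markers also moved after TBI. All 6 fibroblast and mural cell markers were higher, among them Col3a1 (4.29, adjusted p = 1.17e-06) and Col1a1 (3.64, adjusted p = 4e-06), which were named after their values were seen, as were 5 of 5 monocyte and neutrophil markers tested, 6 of 7 oligodendrocyte and 6 of 8 endothelial markers and 1 of 5 choroid plexus markers. Of 7 neuronal markers 6 were lower. Of 8 astrocyte markers, 7 were higher after TBI, 1 was higher with PLX3397, and 1 was higher and 1 lower with the combination, with sums of 4301 to 5429 TPM in vehicle and 4446 to 4823 TPM in combination mice. Of 5 monocyte and neutrophil markers tested (8 listed), 2 were lower with PLX3397 and 2 with the combination. With PLX3397, S100a8 (0.73), S100a9 (0.58) and Ly6c2 (0.26) were not called (limma adjusted p = 0.288, 0.494 and 0.705). Ly6g was below the limit for testing, with a mean of 0.0178 TPM. It was listed at 0 in 21 of the 24 libraries, among them all PLX3397 and combination mice, too few values above 0 to compare groups. Red blood cell genes were lower in 5 of 5 with PLX3397 (median -1.81) and with the combination (median -1.77), and 0 of 5 differed after TBI. Fibroblast and mural cell markers were higher in 4 of 6 with PLX3397 and in 3 of 6 with the combination. With Anakinra none of them was called (limma adjusted p between 0.0968 and 0.579). Col3a1 (2.18), Col1a1 (2.05), Lum (1.16) and Dcn (0.48) still lay above vehicle without overlap. Pdgfrb (0.16) and Rgs5 (-0.14) overlapped vehicle, and these values were named after they were seen. Of 7 neuronal markers 2 were higher with PLX3397 and 4 with the combination, and 1 of 7 oligodendrocyte markers was higher with PLX3397, while 0 of 8 endothelial and 0 of 5 choroid plexus markers were called with any drug. The part of any of these markers in the results for the 10 genes was not tested.

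Several of the 10 genes are abundant in fat or liver, and markers of both tissues were low. The fat cell markers Adipoq, Lep, Cidec and Plin1 had means of 0.0152 to 0.0624 TPM, and the sum of 5 such markers was at most 2.04 TPM in any mouse. Alb and Apob had means of 0.071 and 0.0466 TPM, and the sum of 6 liver and plasma lipoprotein genes was 2.94 to 6.42 TPM. The highest of these was Apoa2, with group means of 2.435 to 3.567 TPM. That is not low beside Apoc4, whose group means after TBI were 1.067 to 3.909 TPM. None of the genes of these lists that were tested was called in vehicle against sham or in a drug against vehicle. Against sham, Apoc3 was called higher with PLX3397 (0.63, adjusted p = 0.0219) and with the combination (0.58, adjusted p = 0.0395), and Apoa2 with Anakinra (0.39, adjusted p = 0.0381), both named after their values were seen.

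**Figure D5:**
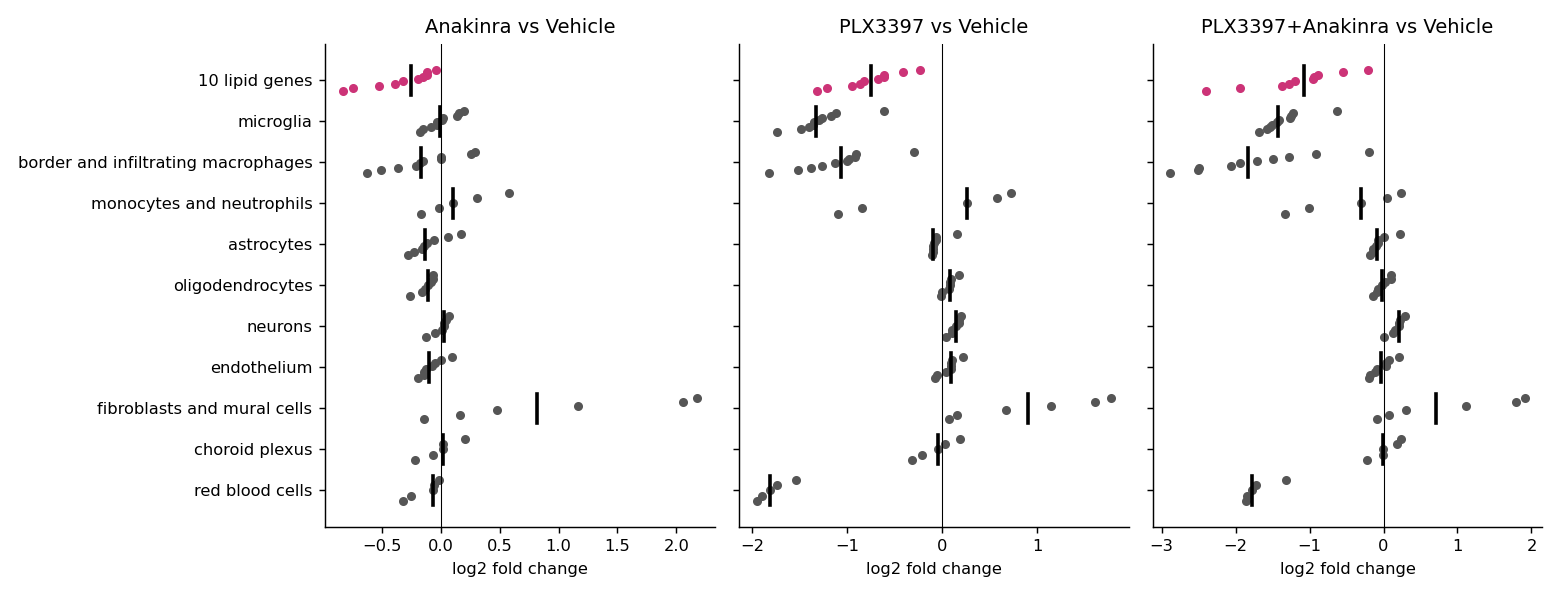
Log2 fold change against vehicle of the 10 genes (pink) and of the tested markers of 10 cell types (grey), 1 point per gene, with the median as a bar, for Anakinra, PLX3397 and PLX3397+Anakinra, on axes of different range. The microglial and macrophage medians lie near 0 with Anakinra (-0.01 and -0.16) and at -1.33 and -1.06 with PLX3397, where the median of the 10 genes is -0.75.

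Of 75 other genes of lipid handling, 71 were tested, and 39 were higher and 17 lower in vehicle than in sham mice (26.6% and 27.7% of all genes). With PLX3397 2 were higher and 16 lower than with vehicle (3.23% and 6.66% of all genes), and with the combination 5 were higher and 20 lower (7.88% and 9.6%). With Anakinra 0 were called in either direction (0.0695% and 0.0463%). The median over the 71 was -0.06 with PLX3397 and with the combination, far closer to 0 than the medians of the 10 genes above.

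The list of lipid scavenging and fatty acid binding moved most. Of its 9 genes, 8 were higher after TBI, led by Gpnmb, a glycoprotein of lipid-laden phagocytes (log2 fold change 6.17, adjusted p = 9.08e-18), the lectin gene Lgals3 (5.77, adjusted p = 6.37e-18) and the scavenger receptor gene Cd36 (4.06, adjusted p = 3.49e-13). With PLX3397 6 were lower, among them the scavenger receptor gene Msr1 (-1.22, adjusted p = 6.58e-07) and the lipid sensor gene Trem2 (-1.001, adjusted p = 1.71e-06). With the combination 8 were lower, with the largest changes for Cd36 (-1.71, adjusted p = 3.24e-06), Gpnmb (-1.69, adjusted p = 2.75e-07) and Msr1 (-1.64, adjusted p = 2.73e-09). The exception was Fabp3, a fatty acid binding protein gene, which fell by 0.55 after TBI (adjusted p = 7.56e-09) and was higher with PLX3397 and the combination (0.27 and 0.26, adjusted p = 0.000844 and 0.000735, limma), named after its values were seen.

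Genes for the exit of sterol from the lysosome rose after TBI in 6 of 6, and 3 were lower with PLX3397 and 5 with the combination. Npc2, which hands cholesterol to the lysosomal membrane, rose by 1.48 (adjusted p = 9.29e-14) and then fell by 0.47 with PLX3397 (adjusted p = 9.66e-05) and by 0.68 with the combination (adjusted p = 2.4e-07). Lipa, the lysosomal acid lipase gene, was the lipase besides Lpl that followed the same course, up by 1.88 after TBI (adjusted p = 1.94e-13) and down by 0.92 with the combination (adjusted p = 1.64e-07). Angptl4, a secreted inhibitor of lipoprotein lipase, rose by 2.38 (adjusted p = 3.92e-09), and its log2 fold changes with the drugs were -0.06 to 0.19 and were not called. Gpihbp1, the capillary anchor of lipoprotein lipase, had a mean of 0.46 TPM and was below the limit for testing.

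Among 12 genes of LXR, PPAR and LXR targets, 8 were higher and 3 lower after TBI, 3 were lower with PLX3397 and 4 with the combination. Nr1h3, the gene of LXR alpha, rose by 0.83 (adjusted p = 9.38e-06). The LXR target Mylip, which encodes a ubiquitin ligase, rose by 1.16 (adjusted p = 2.14e-11) and fell by 0.69 with PLX3397 (adjusted p = 9.44e-07) and by 0.83 with the combination (adjusted p = 2.04e-08).

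Other lists moved little with the drugs. Of 10 carrier and receptor genes, 4 were higher and 3 lower after TBI, 1 was higher and 2 lower with PLX3397, and 1 was higher and 1 lower with the combination, in which Apobr, a receptor gene for ApoB, fell by 1.07 (adjusted p = 1.38e-07). Apod, another apolipoprotein gene, rose by 1.41 after TBI (adjusted p = 1e-11). Of 9 further ABC transporter genes, 1 was lower with PLX3397 and 1 with the combination, in both cases Abca9 (-0.84 and -0.91, adjusted p = 1e-06 and 1.39e-07, limma), and Abcg4 was higher with the combination. The 8 lipid droplet genes tested besides Plin2 had 3 rises and 1 fall after TBI, with Plin3 up by 0.89 (adjusted p = 5.02e-11), and 0 were called with PLX3397, Anakinra or the combination. Plin1, Cidec and Soat2 were below the limit for testing. Of 4 esterification genes and 4 oxysterol enzyme genes, Dgat2 and Cyp46a1 were called higher with the combination (0.24 and 0.28, adjusted p = 0.0131 and 0.00285, limma), and none was called lower.

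Over the 24 libraries the 10 genes rose and fell together, with Pearson r between 0.48 and 0.99 over the 45 pairs (median 0.92), a description that the shared sham and vehicle difference dominates. After the group means were removed, the r ranged from -0.28 to 0.93 (median 0.37), and it was highest for Abca1 and Plin2 (0.93). Abcg1 had the lowest r with the other genes, with a median of 0.57 and a median of residuals of -0.07.

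Genes among the 3 with the highest r to each of the 10 over all libraries are given with the r that remained after the group means were removed. For Apoe they were Ctsa (0.984, remaining 0.91), Cebpa (0.984, remaining 0.784) and Ctsb (0.983, remaining 0.859). For Apoc1 they were Hpse (0.947, remaining 0.652), Mmp27 (0.947, remaining 0.603) and Dpep2 (0.944, remaining 0.664). For Apoc2 they were Wfdc17 (0.989, remaining 0.448), Lyz2 (0.985, remaining 0.637) and Abca1 (0.982, remaining 0.327). For Apoc4 they were Apoe (0.919, remaining 0.501), Cd22 (0.918, remaining 0.583) and Abcc3 (0.906, remaining 0.461).

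The genes nearest to Abca1 were Apobec1 (0.993, remaining 0.799), C3ar1 (0.992, remaining 0.818) and Ms4a6d (0.992, remaining 0.768). The genes nearest to Abcg1 had lower values, among them Bcar3 (0.882, remaining 0.788) and Pdcd6ip (0.87, remaining 0.72). Lpl was nearest to Cd180 (0.993, remaining 0.878), Mpeg1 (0.993, remaining 0.861) and Cd84 (0.993, remaining 0.837). Plin2 was nearest to Cd68 (0.996, remaining 0.873), Lilrb4a (0.995, remaining 0.855) and Capg (0.995, remaining 0.86), among which Cd68 encodes a lysosomal protein of phagocytes. Soat1 was nearest to Scpep1 (0.983, remaining 0.852), Abca1 (0.981, remaining 0.806) and Tnfrsf1b (0.981, remaining 0.835), and Ch25h to Fam46c (0.976, remaining 0.613), Lpcat3 (0.973, remaining 0.574) and Gusb (0.973, remaining 0.404).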

How the data were processed

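Poly(A) RNA of lesional and perilesional brain was sequenced in paired-end mode by the authors, who mapped it to mm10 (GRCm38) in CLC Genomics Workbench and deposited TPM for 36333 genes in 24 libraries. Annotated tables with the same values, one of them reduced and with the authors' own test values, were not used. From the deposited TPM, log2(TPM + 1) was computed, and the 17267 genes whose mean over the libraries reached 0.5 TPM were fitted in limma 3.58.1 (R 4.3.3), with a term for each group over all 24 libraries and a variance trend. Calls were made at a Benjamini-Hochberg adjusted p below 0.05 over all genes tested. The fit was tested on simulated data. The study's criteria (p below 0.05, ratio above 2, difference above 4 TPM) were an alternative. The genes, lists and tests were chosen with earlier results of these data known. From each list of other lipid genes the text names at most the 3 called genes with the largest change in each comparison of vehicle with sham or a drug with vehicle, and genes below the limit. For each of the 10 genes the 3 tested genes with the highest r are named, except that some results that these rules select are not reported here. Ratios to Apoe were tested by exact permutation. The precision of each value rests on 4 or 5 mice per group, since depth is unknown. Sequences and coordinates are from RefSeq GRCm38.p6, because the coordinates in the deposited tables belong to another assembly.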

Additional observations from a re-analysis of the deposited data

Results flagged for a closer look

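Single mice stood far from the rest of their group in 5 of 49 groups of values examined, where chance gives about 1 in 20. Vehicle mouse J17B had 16.4 TPM of Apoc1, against 27.5 TPM in the next mouse. Combination mouse J09 had 9.80 TPM of Apoc2 (next 5.67 TPM) and 14.6 TPM of Ch25h (next 9.96 TPM). Vehicle mouse J01B had 69.6 TPM of Abcg1 (next 62.4 TPM). Sham mouse J07 had 0.175 TPM of Apoc2, and the other sham mice were listed at 0.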

How the results depend on the processing

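No called change turned its direction under an alternative. Some that were not called and lay near 0 changed sign with a mouse left out, namely Ch25h with Anakinra against vehicle (-0.16 to 0.05) and for the combination against PLX3397 (-0.002 to 0.18), Abcg1 with PLX3397 against sham (-0.009 to 0.04) and for the combination against PLX3397 (lowest -0.001), and the interactions of Abca1 (-0.06 to 0.06) and Apoc4 (-0.07 to 0.31, and -0.40 with a pseudocount of 0.1). Of 749 fold changes of the 10 genes under other settings, 705 kept their side of the threshold, 42 lost and 2 gained a call, and of 1160 with one mouse left out these numbers were 1124, 26 and 10. For Anakinra against vehicle, 0 of the 10 genes were called with a pseudocount of 0.1, with no filter on low values, without the variance trend or by the study's criteria, and 0 to 3 with a mouse left out. Shares of all genes are not given for the fits that left out a mouse. The study's criteria use an unadjusted p and add limits on the ratio and the difference. By them the calls against sham were 8 for vehicle (5.11% of all genes in the same direction) and 7 for PLX3397 (3.58%). They were 8 for Anakinra (5.24%) and 5 for the combination (2.84%). Against vehicle the calls were 3 for PLX3397 (0.932%) and 4 for the combination (1.55%). The combination had 2 calls against PLX3397 (0.0927%) and 4 against Anakinra (1.55%), and PLX3397 had 1 against Anakinra (0.724%). Among the other lipid genes the study's criteria called 17 for vehicle against sham (5.11% of all genes higher and 0.156% lower). Against vehicle they called 1 for PLX3397 (0.0869% of all genes higher and 0.932% lower) and 7 for the combination (0.0985% and 1.55%). Leaving out a mouse gave 1 to 3 calls for the combination against PLX3397, with 3 without PLX3397 mouse J01 or combination mouse J03. Ratios to Apoe called were 2 to 4 with PLX3397, 1 to 2 with Anakinra (3 with all mice) and 2 to 4 with the combination when a mouse was left out. Animal numbers J01, J19 and J20 occur in vehicle, there with the letter B, and in PLX3397. Deviations of these same-numbered mice had r of 0.22, 0.02 and -0.16, so they were not treated as pairs. With a replicate block on their 6 libraries 10 genes were called, and 8 without it. Over all genes the calls were 703 with and 747 without the block. The number J17 occurs in vehicle (J17B) and in the combination, and this overlap was not examined. Apoc4 has a mean below 5 TPM and drops out with that filter. Depth is unknown, so values near 0 (Apoc2 and Apoc4 in sham) carry no counting limit.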
